A study of Saccharomyces cerevisiae with 6 samples.

Results

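The nuclear cap-binding complex and the proteins that carry it into the nucleus were followed through 6 budding yeast genes: CBC2 and STO1, which encode the small and the large subunit of the complex, SRP1 and KAP95, which encode importin alpha and importin beta, SRM1, the Ran exchange factor, and NPL3, an RNA-binding protein of messenger RNA. The genes were taken by symbol from the array's annotation. All 6 were found, among 5656 genes with a probe set of their own symbol, and all 6 were among the 5257 genes that were bright enough to be tested. CBC2 passed that brightness filter through the wild-type arrays alone. NPL3 had 3 probe sets and the other 5 genes 1 each, 8 in all.

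Expression was measured in Saccharomyces cerevisiae on Affymetrix Yeast Genome S98 arrays, whose probe sets each join several short probes to a transcript. The wild type was strain Y255 and the cbc2 deletion, isogenic with it, was strain Y2685. Each was measured on 3 arrays, 1 per sample. Both were grown in synthetic complete medium (SC) at 30 °C to log phase, at an OD600 of 1.0, and both were sampled as total RNA. The labels name neither the cassette that replaced CBC2 nor the number of clones. Nor do they say whether a strain's samples were grown apart. The p-values therefore speak for the spread among these samples only, which may be technical.

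The complex binds the 5′ cap of RNA polymerase II transcripts while they are being made and stays with them through splicing, 3′ end formation and export. Importin alpha (Srp1) recognises the complex and importin beta (Kap95) carries the pair through the nuclear pore. Ran bound to GTP, which Srm1 produces on chromatin inside the nucleus, releases importin beta from its cargo there. Npl3 is a shuttling protein with arginine and serine repeats that coats new messenger RNA and binds the cap-binding complex in yeast.

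Of the 6 genes, 3 rose in the deletion strain (STO1, SRM1 and NPL3), CBC2 fell, and SRP1 and KAP95 were not called. NPL3 was read here from 1 of its 3 probe sets, the dimmest. Its other probe sets overlapped between the strains and were not called. A call is an adjusted p under 0.05 from limma, adjusted by Benjamini-Hochberg across the 6956 probe sets tested, and all adjusted p-values of genes come from that fit. The count of 4 of 6 called stands beside a background of 32.6% of all tested genes called, 16.3% higher and 16.3% lower. The strains did not overlap for the same 4 genes, beside 49.8% of all tested genes. With 6 genes, 1 of them the deleted one, the share called was not tested against that background. Intensities below are linear values after quantile normalisation, and fold changes are deletion over wild type with their 95% intervals.

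CBC2 (YPL178W) was read first, as a check of the labels. Its normalised intensities were 882, 840.3 and 763 on wild-type replicates 1, 2 and 3. On all 3 deletion arrays the gene was at the floor of 8.25, the 10th percentile of all normalised values, and the deposited intensities there were 1.9, 2 and 4.5. Its signal was thus at least 100.2-fold lower without the gene, a bound set by the floor, and every array carried the level its label calls for. As the gene was tested through its wild-type signal alone, its call is a check of the labels and no finding. For the other genes, a change of transcript in each cell and a change in the share of cells with the transcript cannot be told apart in RNA pooled from a whole culture.

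STO1 (YMR125W) encodes the large subunit, which holds the small subunit in the shape that grips the cap. It gave 179.8, 189 and 172 in the wild type against 258, 265 and 289 in the deletion. The lowest deletion array lay above the highest wild-type array, and the smallest of the 9 ratios of a deletion to a wild-type array was 1.36. The rise from 180.1 ± 8.49 (SD, n = 3) to 271 ± 16.4 was 1.50-fold (interval 1.19 to 1.90, adjusted p = 0.0169). Thus the messenger of the remaining subunit was higher, not lower, in cells without its partner. The arrays went through 2 fluidics stations, the first of which washed wild-type replicates 1 and 2 alone. With the station as a block the STO1 call was lost (log2 fold change 0.65, SE 0.22, adjusted p = 0.0968), as it was without wild-type replicate 3 (0.55, adjusted p = 0.0546).

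**Figure D1:**
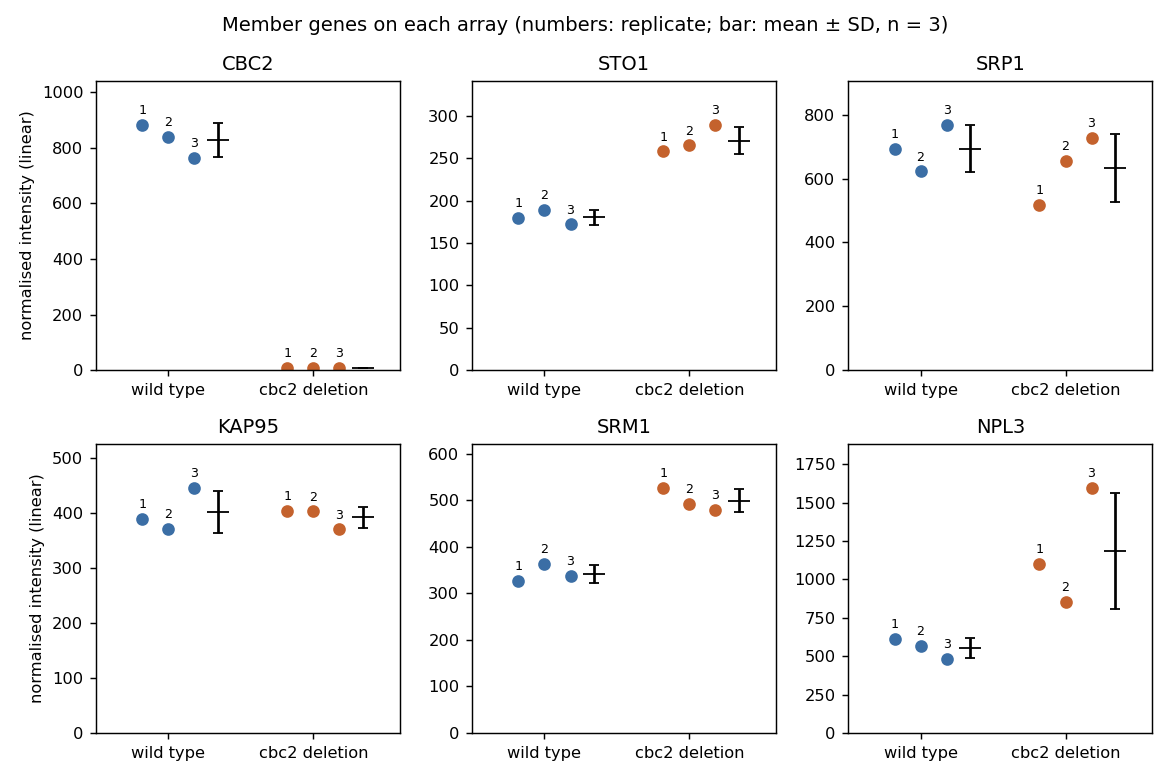
Normalised intensity (linear, vertical axis from 0) of the 6 genes on each of 3 wild-type and 3 cbc2 deletion arrays, with replicate numbers and the mean ± SD beside each strain. CBC2 drops from 828 to the floor of 8.25. STO1, SRM1 and NPL3 (its plain probe set, without a suffix letter) do not overlap between strains, and SRP1 and KAP95 do.

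The importin genes, which bring the complex into the nucleus, overlapped between the strains. SRP1 (YNL189W), importin alpha, gave 692, 622 and 767 in the wild type, against 518, 656 and 726 without CBC2. Only deletion replicate 1 lay below the wild-type range, and the other two deletion arrays lay inside it. The fitted fold was 0.91 (interval 0.69 to 1.19, adjusted p = 0.578).

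KAP95 (YLR347C), importin beta, gave 389, 372 and 446 in the wild type and 404, 403 and 370.3 in the deletion strain. Its 2 means, 402 ± 38.6 and 392 ± 19.2 (SD, n = 3 each), differed by less than the spread within either strain. The fitted fold was 0.98 (interval 0.77 to 1.24, adjusted p = 0.901). A rise as large as the fitted 1.50-fold of STO1 lies outside both importin intervals, while a fall to 0.77 for KAP95 or to 0.69 for SRP1 lies at their edge. The interval of STO1 itself, 1.19 to 1.90, starts below the upper end of that of KAP95 and at about that of SRP1. These intervals hold for the normalised values. Neither importin gene was called in any of the 16 other settings tried.

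SRM1 (YGL097W) encodes the exchange factor that loads Ran with GTP in the nucleus. Its intensities were 326, 364 and 337 in wild-type cells and 527, 492 and 479 in deletion cells, with a gap between the strains. The rise from 342 ± 20 to 499 ± 24.7 (SD, n = 3 each) was 1.46-fold (interval 1.16 to 1.84, adjusted p = 0.0207), close in size to that of STO1. The call was lost in 5 of 16 other settings: with the station block (log2 fold change 0.57, adjusted p = 0.131), on the deposited scale (0.29, adjusted p = 0.712), and without wild-type replicate 1, wild-type replicate 3 or deletion replicate 1 (0.50 to 0.54, adjusted p = 0.0552 to 0.071).

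NPL3 (YDR432W) had the largest fitted rise of the 6 genes by its plain probe set, whose name carries no suffix letter. That probe set gave 614, 567 and 483 in the wild type and 1101, 853 and 1596 in the deletion strain. All 3 deletion arrays lay above all 3 wild-type arrays, but they ranged widely among themselves, and deletion replicate 3 was far the highest. The rise from 554 ± 66.3 to 1183 ± 378 (SD, n = 3 each) was 2.07-fold (interval 1.47 to 2.94, adjusted p = 0.00706). Without deletion replicate 3 the log2 fold change went from 1.05 to 0.81 and was still called (adjusted p = 0.0143).

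The other probe sets that the annotation gives to NPL3 did not pass the test. The probe set with suffix g gave 1518, 1767 and 1994 in the wild type and 2966, 1929 and 2574 in the deletion strain. Deletion replicate 2 fell within the wild-type range there, and the fold was 1.40 (interval 1.06 to 1.86, adjusted p = 0.0679). Without that array this set was called (log2 fold change 0.65, adjusted p = 0.0257). The probe set with suffix i gave 2140.4, 2371 and 3253 against 3940.4, 2789.8 and 2163, so that the strains overlapped almost completely, with a fold of 1.13 (interval 0.79 to 1.61, adjusted p = 0.593). Both suffixes put a probe set outside the plain class of the array's design, and the probes' places in the transcript were not analysed here.

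Replicates ranked differently by probe set. Deletion replicate 3 was the highest of the 6 arrays with the plain set and the second lowest with set i, and wild-type replicate 3 was the lowest with the plain set and the second highest with set i. The log2 ratio of the plain set over set i in the deposited values was -1.73, -1.98 and -2.67 in the wild type against -2.00, -1.78 and -0.48 in the deletion strain. Only deletion replicate 3 stood outside the wild-type range of that ratio, so the shift of 0.71 between the strain means rests on it. In the main setting NPL3 was called by 1 of its 3 probe sets, while the fitted folds of the 3 were 2.07, 1.40 and 1.13. Scaling to one median called set g as well (log2 fold change 0.75, adjusted p = 0.0229). So did the scan day block (0.66, adjusted p = 0.0252), but the second scan day held deletion replicate 2 alone. That block is thus close to leaving this array out, which gave 0.65 for set g.

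**Figure D2:**
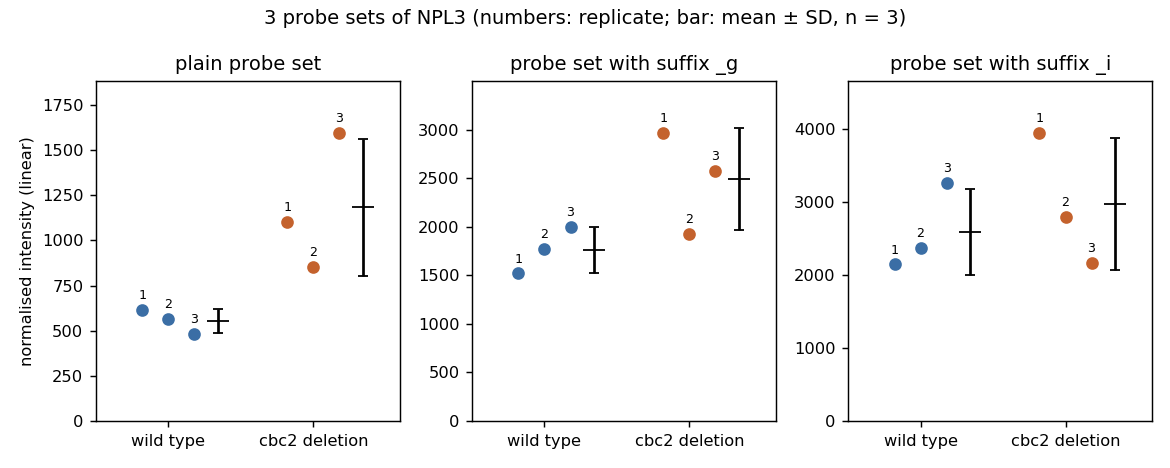
Normalised intensity (linear, vertical axis from 0) of the 3 NPL3 probe sets on each array, with replicate numbers and mean ± SD (n = 3). The strains separate with the plain set (554 against 1183), overlap in deletion replicate 2 with set g, and overlap widely with set i (2588 against 2964).

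The ratio of 2 genes on the same array does not depend on a scaling by 1 factor per array, though quantile normalisation can alter it. The 5 genes other than CBC2 make 10 pairs, and the strains did not overlap in 7 of them, beside 49.8% of all pairs of tested genes. Each of the 7 had the smallest p that a two-sided exact permutation test of 3 against 3 arrays can give, 0.10 (adjusted over the 10 pairs, 0.143), so none could pass a threshold of 0.05. On the log2 scale, STO1 relative to KAP95 was 0.59 higher in the deletion strain (SD 0.21 in the wild type and 0.15 in the deletion strain, n = 3 each). STO1 relative to SRP1 was also 0.59 higher (SD 0.24 and 0.18).

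SRM1 moved in the same way against the importins: KAP95 relative to SRM1 stood at -0.67, -0.54 and -0.62 from the wild-type mean on the deletion arrays, and SRP1 relative to SRM1 at -0.98, -0.51 and -0.32. NPL3, read from its plain set, was higher relative to both importin genes, which shifted by -1.19 against it (SD within the deletion strain 0.46 for SRP1 and 0.56 for KAP95, n = 3). It was also higher relative to STO1, which shifted by -0.60, although deletion replicate 2 shifted by only -0.14. The log2 ratio of SRM1 to NPL3 shifted by -0.58 and overlapped between strains (exact permutation p = 0.20, two-sided).

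The remaining pairs each joined 2 genes with similar fold changes. The log2 ratio of STO1 to SRM1 shifted by -0.01, with deletion arrays at -0.19, 0.01 and 0.14 from the wild-type mean (exact permutation p = 1.00). The ratio of SRP1 to KAP95 shifted by 0.00, and here the wild-type arrays lay between -0.04 and 0.02 from their mean while the deletion arrays spread from -0.32 to 0.30 (exact permutation p = 0.90). These pairs follow the fold changes given above and add no separate grouping.

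**Figure D3:**
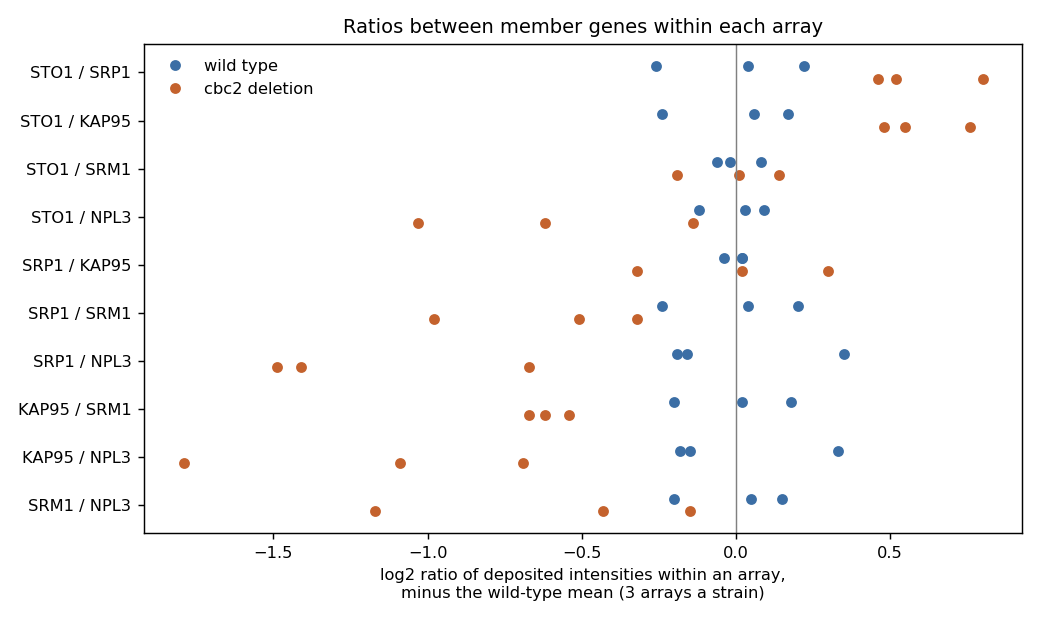
Log2 ratios of deposited intensities between pairs of the 5 genes other than CBC2, each point 1 array, plotted as the distance from the wild-type mean of that pair (horizontal axis, 3 arrays a strain). The strains are apart in 7 of 10 pairs and overlap for STO1 / SRM1, SRP1 / KAP95 and SRM1 / NPL3.

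The deposited arrays differed in overall brightness, with medians from 78 to 176, a 2.26-fold range. With no scaling, tested probe sets shifted by a median of -0.27 on the log2 scale, and only CBC2 of the 6 genes was called, beside 10.5% of all probe sets. Measured from that median, STO1 was at 0.54, SRM1 at 0.55 and NPL3 at 1.14, and SRP1 and KAP95 were both at -0.06. Measured in the same way after quantile normalisation they were at 0.60, 0.56, 1.06, -0.13 and -0.02. With the station block 2 of the 6 genes were called, beside 9.70% of probe sets. They were CBC2 and NPL3, the latter by its plain set (log2 fold change 1.25, adjusted p = 0.049). Sets g and i of NPL3 were at 0.30 and -0.18 with that block, and neither was called. In that block wild-type replicate 3 alone stands for its strain on the second station.

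**Figure D4:**
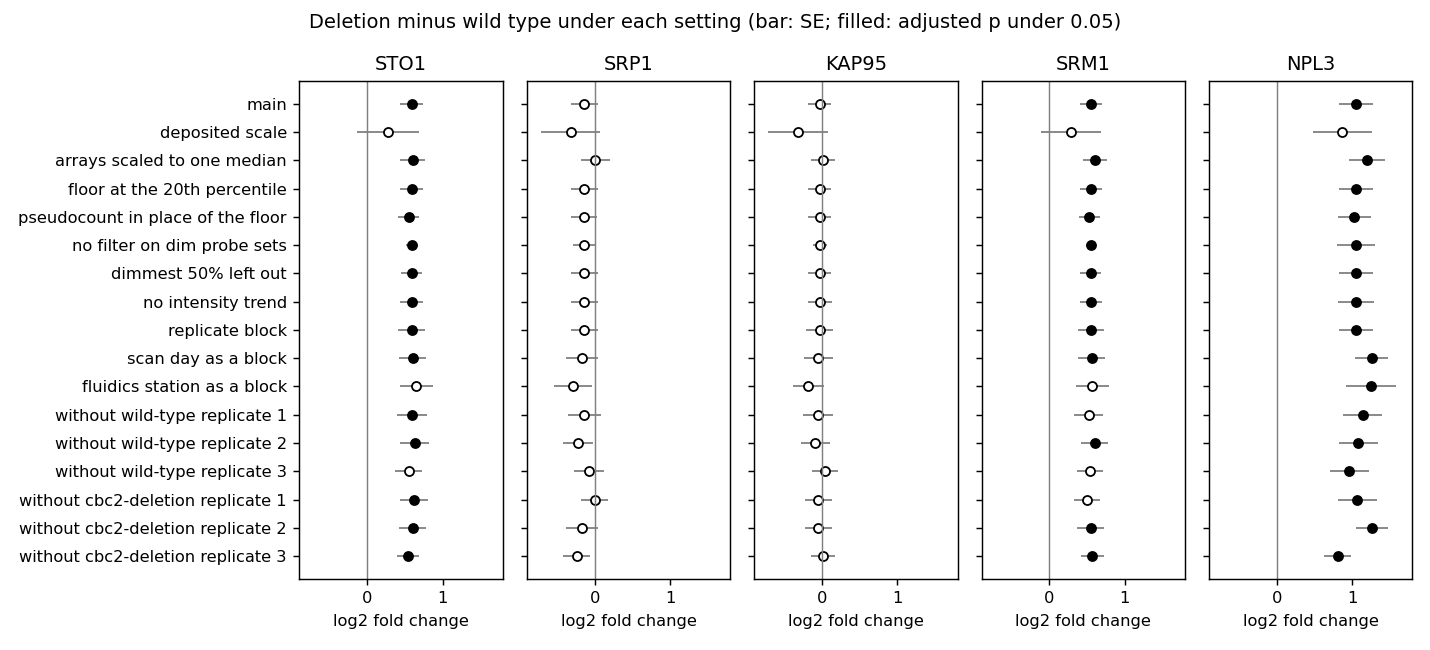
Log2 fold change, deletion minus wild type (horizontal axis, bar SE), of the 5 genes other than CBC2 under the main setting and 16 others, with filled points for an adjusted p under 0.05. STO1, SRM1 and NPL3 (by its plain probe set) stay above 0 throughout while their calls come and go. SRP1 and KAP95 lie between -0.32 and 0.04 with no call.

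Around the importin pair, the 15 karyopherin genes (receptors that carry cargo in or out of the nucleus, SRP1 and KAP95 among them) showed few calls. Of them 2 rose, none fell and 13 were not called. The share called was 13.3%, beside 32.6% of all tested genes. The median log2 fold change of the 15 genes was 0.33, beside 0.00 over all tested genes. PSE1, an importin for ribosomal and other proteins, gave 1213, 1015 and 904 in the wild type and 1419, 1407 and 1588 in cells without CBC2 (log2 fold change 0.50, SE 0.16, adjusted p = 0.0345). KAP122, another import receptor, rose from 147 ± 9.44 to 208 ± 17.9 (SD, n = 3 each; log2 fold change 0.50, adjusted p = 0.0376). These calls were lost in 11 and 10 of 16 other settings. MTR10, the receptor that imports Npl3, was at 0.41 (adjusted p = 0.228), and CSE1, which returns importin alpha to the cytoplasm, at -0.23 (adjusted p = 0.647). Both were named after their values were seen.

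Around SRM1, the Ran cycle held 9 genes, of which 2 rose and 0 fell, leaving 7 without a call. The share called was 22.2%, beside 32.6% of all tested genes, and the median log2 fold change was 0.11. Without SRM1, 1 of 8 was called. The second riser besides SRM1 was GSP1, which encodes yeast Ran itself. Its intensities were 606, 405 and 737 in the wild type and 2476, 1551 and 1566 in the deletion strain; every deletion array lay far above the highest wild-type array. The log2 fold change was 1.69 (SE 0.25, adjusted p = 0.00128), and it was called in 16 of 16 other settings. GSP2 encodes a near-identical Ran, so its probe set and that of GSP1 may share signal, and it was at 0.18 (515 ± 87 against 578 ± 33, SD, n = 3 each; adjusted p = 0.454). RNA1, the GTPase-activating protein that acts opposite Srm1 in the cytoplasm, was at -0.30 (adjusted p = 0.31). GSP2 and RNA1 were named after their values were seen.

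The nuclear pore itself showed no call. Of 29 nucleoporin genes 0 were called by limma (3 at an unadjusted p under 0.05), beside 32.6% of all tested genes, with log2 fold changes from -0.39 to 0.54 and a median of 0.01. In the other settings the count was at most 2.

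Around NPL3, 9 genes of related RNA-binding proteins and of enzymes that modify Npl3 were measured, NPL3 itself among them. Of them 2 rose, 4 fell and 3 were not called. The share called was 66.7%, beside 32.6% of all tested genes, and the median log2 fold change was -0.30. Without NPL3, 5 of 8 were called. The list was chosen with earlier results of these data known, and its share was not tested against the background. The other riser was PAB1, the poly(A)-binding protein, from 965 ± 42.6 to 1523 ± 140.4 (SD, n = 3 each; log2 fold change 0.66, adjusted p = 0.00748).

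HRB1, a shuttling RNA-binding protein of the same serine- and arginine-rich kind as Npl3, gave 1206, 1125 and 667 in the wild type and 251, 458 and 321 in the deletion strain. Its strains were apart and its fall, -1.54 on the log2 scale (SE 0.27, adjusted p = 0.00287), was the largest of the list. GBP2, the gene most like HRB1, was at -0.30 (adjusted p = 0.143).

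SKY1 encodes the kinase that phosphorylates Npl3 in the cytoplasm and so favours its return to the nucleus. It gave 889.7, 838 and 701 in the wild type and 433, 469.8 and 341 in the deletion strain, a log2 fold change of -0.97 (SE 0.18, adjusted p = 0.00339). HMT1, the methyltransferase that modifies the arginines of Npl3, went from 781 ± 75 to 488 ± 57.2 (SD, n = 3 each; -0.68, adjusted p = 0.0114). HRP1, a messenger 3′ end factor, was at -0.48 (adjusted p = 0.0321), and its call was lost in 10 of 16 other settings. GLC7, the phosphatase that acts on Npl3 in the nucleus, was at 0.32 (adjusted p = 0.143). In the main setting the plain NPL3 probe set rose, the kinase and methyltransferase genes fell, and the phosphatase gene was not called. A relation between these genes was not tested. GBP2, HMT1, HRP1 and GLC7 were named after their values were seen. With the station block 1 of the 9 genes was called, NPL3 by its plain set, beside 9.70% of all probe sets. HRB1 was not called there (log2 fold change -1.00, adjusted p = 0.0836), nor SKY1 (-0.77, adjusted p = 0.083), HMT1 (-0.82, adjusted p = 0.0562) or PAB1 (0.68, adjusted p = 0.0727).

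**Figure D5:**
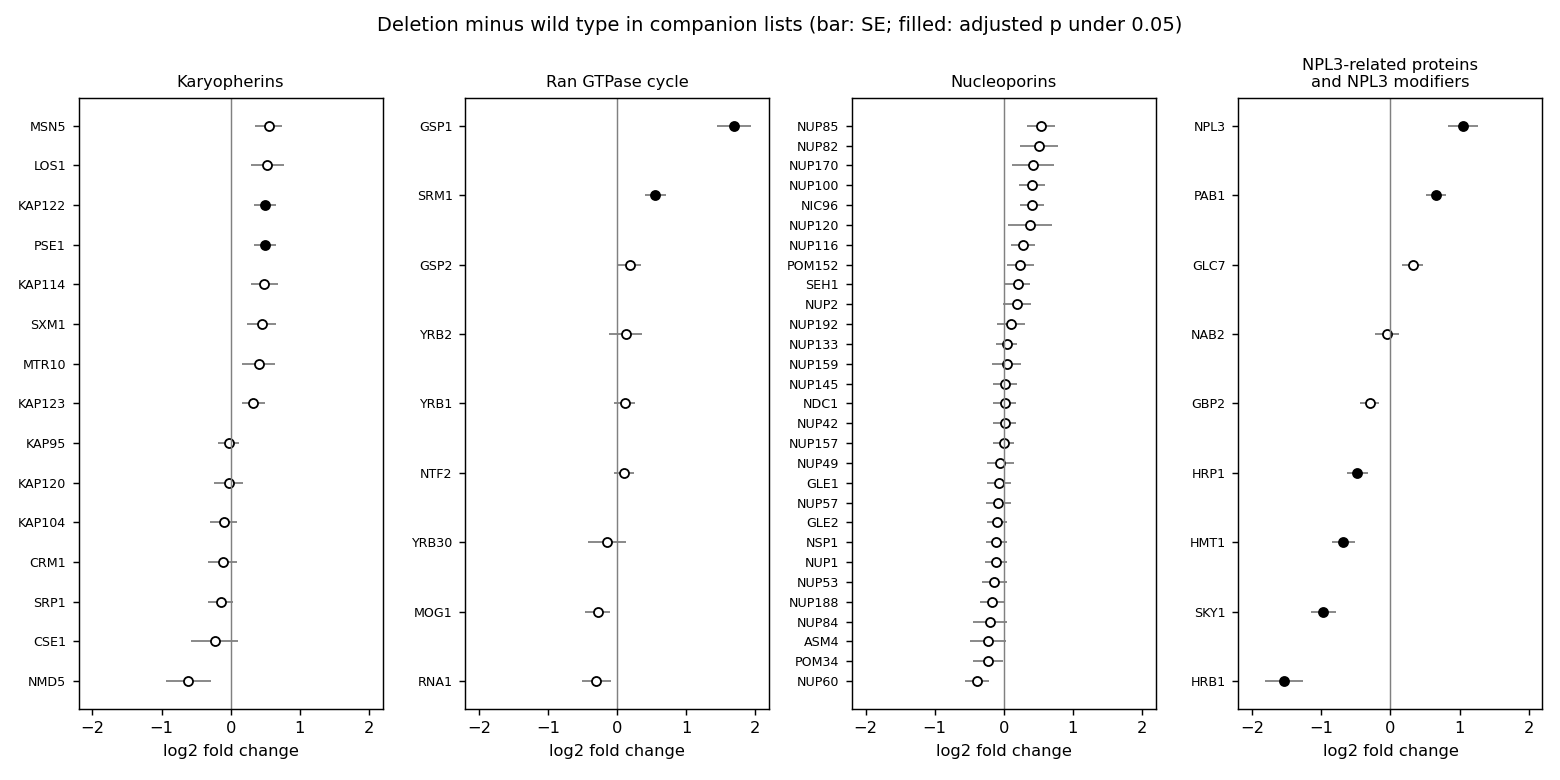
Log2 fold change, deletion minus wild type (horizontal axis, bar SE), of the genes of 4 companion lists, with filled points for an adjusted p under 0.05. GSP1 at 1.69 stands to the right of the Ran list, no nucleoporin is called, and the NPL3 list spreads from HRB1 at -1.54 to NPL3 at 1.05.

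The genes whose log2 values ran most like each of the 6 over the 6 arrays were picked from 5066 others by Pearson correlation. These correlations describe 6 arrays that share the strain difference, and many genes come close: 489 genes had r above 0.9 with STO1, 368 with SRM1 and 396 with NPL3, against 67 with SRP1 and 18 with KAP95. CBC2 was at the floor on all 3 deletion arrays, so its profile mostly marks the strain and its neighbours are no finding. With 615 such genes, it ran most like the kinase gene SSK22 (r = 0.999, log2 fold change -1.13) and the purine synthesis gene ADE8 (0.999, -1.22). STO1 ran most like the ribosomal protein gene RPL30 (r = 0.999, log2 fold change 0.65) and the small nucleolar RNA gene SNR56 (0.996, 2.10).

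SRM1 was nearest to INM1, an inositol monophosphatase gene (r = 0.997, log2 fold change 0.89), and to ICL2, a mitochondrial lyase gene (0.995, 1.52). NPL3 was nearest to the mitochondrial membrane genes MIC10 (r = 0.999, log2 fold change 1.00) and TIM23 (0.997, 0.64). As these 8 genes were picked for following genes that differ by strain, their own fold changes are given as a description. SRP1 was nearest to LSC1, a tricarboxylic acid cycle gene (r = 0.983), and RRN9, an RNA polymerase I factor gene (0.972). KAP95 was nearest to the transporter gene THI73 (r = 0.966) and the glycosyltransferase gene ALG9 (0.964). These last 4 had log2 fold changes of -0.14, -0.11, 0.01 and -0.10.

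Over all 6 arrays, the log2 correlation of 2 arrays was 0.980 or more within a strain and 0.969 or less between strains. Markers of the mating types were read on all arrays. The 4 alpha-specific genes (MF(ALPHA)1, MF(ALPHA)2, STE3 and SAG1) summed to between 9632 and 10329 in the wild type and between 9434 and 9896 in the deletion strain, a sum that is mostly MF(ALPHA)1. STE3 gave 743, 702 and 797 against 394, 620.1 and 569, and MF(ALPHA)2 gave 267, 224 and 303 against 362, 434 and 335, so both were apart between strains without passing the test (adjusted p = 0.0611 and 0.0542). The 5 a-specific genes (MFA1, MFA2, STE2, BAR1 and ASG7) summed to 129 to 147 and 119.9 to 174, with 2 of them (MFA1 and ASG7) at the floor on some arrays. All 4 alpha-specific genes and 1 of the 5 a-specific genes (MFA2) were bright enough to be tested, and 0 were called by limma (2 at an unadjusted p under 0.05). Over all tested genes 32.6% were called and 49.8% were apart between strains. In the other settings at most 1 of these markers was called.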

How the data were processed

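The authors deposited a table of linear intensities for 9335 probe sets. The sources used here do not give the software behind them or their scaling. The deposited run information files of the arrays gave the fluidics station and the scan day. Intensities were quantile normalised, because array medians differed 2.26-fold, raised to the 10th percentile (8.25) and log2 transformed. Leaving out 60 control probe sets and then the dimmest 25% kept 6956 probe sets. They were fitted in R 4.3.3 by limma 3.58.1 (lmFit, then eBayes with a trend on intensity), which was tested on simulated data. Their median SE was 0.20 on the log2 scale, and 3 arrays a strain limit the precision.

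Probe sets were named from the platform annotation, and all 6504 with 1 symbol matched by gene ID to the R64 gene table. A gene was read from its brightest plain probe set. The genes, lists and tests were chosen with earlier results of these data known. Named genes were the 6 genes, up to 4 called genes of smallest p from each list, and the 2 genes most correlated with each of the 6. Alternatives were other scalings, floors, filters and variance models, 3 blocks, and leaving out each array.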

Additional observations from a re-analysis of the deposited data

How the results depend on the processing

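Of the 16 other settings, CBC2 was called in all 15 that tested it (log2 fold change -6.77 to -5.41) and, with the dimmest 50% left out, was not tested. STO1 was called in 13 and NPL3, by its plain probe set, in 15. On the deposited scale the log2 fold changes were 0.27 for STO1 (adjusted p = 0.732), 0.29 for SRM1 (0.712) and 0.87 for NPL3 (0.135). With the station block they were 0.65 for STO1 and 0.57 for SRM1. The other NPL3 probe sets gave 0.49 and 0.18, and scaling to one median called the set with suffix g (0.75, adjusted p = 0.0229), as did the scan day block (0.66, adjusted p = 0.0252). The second scan day held deletion replicate 2 alone, and without that array set g was at 0.65. Set g was at 0.30 with the station block, and set i at -0.18 with it and at -0.05 without deletion replicate 1. Leaving out each array gave 0.54 to 0.63 for STO1, 0.50 to 0.60 for SRM1, 0.81 to 1.26 for NPL3, -0.24 to 0.00 for SRP1 and -0.09 to 0.04 for KAP95. Under scaling to one median KAP95 turned to 0.01 and SRP1 to 0.01. KAP95 was at 0.04 without wild-type replicate 3 and at 0.01 without deletion replicate 3. ALG9 turned to 0.04 under that scaling and ranged from -0.17 to 0.01 without each array, and LSC1 to 0.10 with that scaling. THI73 (0.01) turned to -0.29 on the deposited scale, 0.00 with a pseudocount of 16, -0.03 with the scan day block, -0.49 with the station block, and ranged from -0.15 to 0.26 without each array.

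The number of probe sets called, 2187, was 728 on the deposited scale and 675 with the station block, and 1500 to 1964 without each array. The 4 companion lists held 15, 9, 29 and 9 tested genes. The number called in them was 10, SRM1 and NPL3 included, beside 32.6% of all tested genes. It was 3 on the deposited scale and 2 with the station block, beside 10.5% and 9.70% of all probe sets, and 6 to 12 without each array. The 7 of 10 ratios apart between strains were 6 after normalisation and 7 to 8 without each array. Same-numbered arrays did not deviate together (correlations -0.23, -0.09 and 0.08, and 2 of 6 arrays correlated best with their own number). With the replicate block 1911 probe sets (27.5%) and 4 of the 6 genes were called, STO1 at 0.59 and NPL3 at 1.05 on the log2 scale. The causes of these changes were not tested.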
